A study of Mus musculus with 20 samples.

Results

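The miR-23, miR-27 and miR-24 miRNAs of the mouse heart are described here as 8 entries of the deposited table of 1545, taken by name. miR-23a-3p, miR-27a-3p, miR-24-2-5p and its antisense entry miR-3074-2-3p come from a cluster on chromosome 8. miR-23b-3p and miR-27b-3p come from a cluster on chromosome 13, and miR-24-3p with its antisense entry miR-3074-5p from both. All 8 passed the filter on low values used for testing (at least 5 RPM in at least 4 libraries, which 360 entries passed). RPM stands for reads of a miRNA per 1000000 miRNA reads of the same library. A single read spans a whole mature miRNA, so levels of different miRNAs can be compared without a correction for length. Ligation in library making is known to favour some sequences over others.

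A miRNA is cut from a hairpin in a longer primary transcript, and each hairpin can release a mature RNA from its 5p and from its 3p arm, of which a single one usually accumulates. The mature RNA guides Argonaute proteins to messenger RNAs, mainly through its seed (bases 2 to 8), and lowers their stability or translation. The miR-23, miR-27 and miR-24 hairpins lie in a fixed order in each of a pair of paralogous clusters, are abundant in endothelial cells and heart muscle, and are known for roles in vessel growth, cardiac hypertrophy and cell survival after ischaemia.

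The mature sequences show which of these entries short reads can tell apart. RefSeq (GRCm38.p6) gave a mature sequence for 7 of the 8 entries, printed 5′ to 3′ with the seed in capitals, and miR-23b-3p was not matched.
miR-23a-3p: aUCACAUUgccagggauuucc
miR-27a-3p: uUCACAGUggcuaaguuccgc
miR-27b-3p: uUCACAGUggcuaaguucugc
miR-24-3p: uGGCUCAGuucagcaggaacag
miR-3074-5p: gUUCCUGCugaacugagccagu
miR-24-2-5p: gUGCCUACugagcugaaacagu
miR-3074-2-3p: uGUUUCAGcucaguaggcac
Counted from 1 at the 5′ end, miR-27a-3p and miR-27b-3p differ by 1 substitution, C19U, and share the seed UCACAGU, which no other tested miRNA with a RefSeq sequence (306 of 360) carries. miR-23a-3p aligns to the Mir23b hairpin over its 21 bases with 1 substitution, U19A. Reads shortened at the 3′ end before base 19 cannot separate these paralogues, and how such reads were assigned is not given in the sources used here. The levels of the miR-23 pair and of the miR-27 pair, and the ratios within each pair, are uncertain to that extent. miR-24-3p has the same 22 bases in the Mir24-2 and Mir24-1 hairpins, so its count cannot be divided between the clusters. Its partner on the 5p side can, because miR-24-2-5p belongs to the chromosome 8 cluster and miR-24-1-5p to the chromosome 13 cluster, with the shared seed UGCCUAC. These 5p sequences also begin alike beyond the seed, so reads shortened at the 3′ end may not separate them. miR-3074-5p is complementary to 20 bases of miR-24-3p and miR-3074-2-3p to 20 bases of miR-24-2-5p.

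In the GRCm38 assembly the first cluster spans chr8:84208518-84208921 (404 bases, plus strand) in the order Mir23a, Mir27a, Mir24-2, and the 3′ end of Mir24-2 overlaps the start of the lincRNA gene Gm26532. The second spans chr13:63300484-63301283 (800 bases, plus strand) in the order Mir23b, Mir27b, Mir24-1, inside the protein-coding gene 2010111I01Rik on the same strand and opposite to Fancc. Mir27b lies in an exon of a transcript of 2010111I01Rik annotated as subject to nonsense-mediated decay, Mir24-1 lies in an exon of another, and no annotated exon overlaps Mir23b. The values of miR-3074-5p were 0.0685% to 1.56% below those of miR-24-3p in the same library, and those of miR-3074-2-3p were 0% to 4.92% below those of miR-24-2-5p. The antisense entries therefore repeat the reads of their partners and are not described separately below, and a count of 8 entries stands for 6 miRNAs.

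Total RNA from hearts of C57BL/6J mice was sequenced in 4 groups: 5 sham, 4 MI (read as myocardial infarction), 4 CIH and 7 MI+CIH hearts. CIH is read as chronic intermittent hypoxia, the repeated fall in oxygen that occurs in sleep breathing disorders. No group carries a transgene or deletion in the labels, and age, surgical method, duration of exposure and part of the heart are not given in the sources used here. The design asks what infarction, CIH and both together do to cardiac miRNAs. The labels do not say that the libraries of a group came from separate mice, so p-values measure the spread between these libraries.

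Summed over all entries, libraries held 1991323 to 18138415 miRNA reads. At these totals 3 reads, the limit that a count of 0 allows, corresponded to 0.165 to 1.51 RPM. Entries that repeat another are in these totals, so their reads count more than once. Among the 12 such tested entries was miR-1b-5p, which repeats the muscle miRNA miR-1a-3p. Every one of the 8 entries had reads in all 20 libraries, with a fewest of 45. The muscle miRNAs miR-1a-3p, miR-133a-3p, miR-208a-3p and miR-499-5p summed to 88403 to 317712 RPM and 5 miRNAs of other tissues to 87.2 to 768 RPM. Clustered on the 348 tested miRNAs outside these clusters, the 20 hearts formed 3 sets, for which no label is given. Set A comprises 11 hearts: every sham and CIH heart, MI 2 and MI+CIH 1. Set B comprises 6: MI 1, MI 3 and MI+CIH 2, 3, 4 and 5. Set C comprises 3: MI 4 and MI+CIH 6 and 7. Sets B and C hold no sham and no CIH heart, so that library set and infarction cannot be told apart, save that MI 2 and MI+CIH 1 lie in set A. Marker sums differed between the sets. Leukocyte miRNAs (4) were at 85.1 to 213 RPM (set A), 1079 to 1909 (set B) and 227 to 389 (set C). In the same order, fibroblast miRNAs (2) were at 158 to 1254, 1208 to 5088 and 3294 to 4787 RPM. Endothelial miRNAs (4) were at 6059 to 11031, 3955 to 7995 and 25039.7 to 50502 RPM. No miRNA of these lists was at 0 in every library, and the part of such markers in the results below was not tested. In bulk heart RNA, fewer cells of a type and less RNA per cell cannot be told apart.

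Averaged over the 20 libraries, miR-27b-3p was the most abundant of the 6 miRNAs at 8938 RPM and ranked 13 among all 1545 entries. miR-24-3p (2761 RPM, rank 30), miR-27a-3p (2699 RPM, rank 32), miR-23a-3p (2268 RPM, rank 37) and miR-23b-3p (1525 RPM, rank 44) followed, and miR-24-2-5p had 173 RPM (rank 101). In the sham hearts the order was miR-27b-3p, miR-27a-3p, miR-24-3p, miR-23a-3p, miR-23b-3p and miR-24-2-5p. The ranges of neighbours in that order overlapped for miR-27b-3p and miR-27a-3p, for miR-27a-3p and miR-24-3p, and for miR-23a-3p and miR-23b-3p. Even so, miR-23a-3p was above miR-23b-3p and miR-27b-3p above miR-27a-3p in each of the 20 libraries. On the RPM scale the level of miR-27b-3p varied least, with an SD of log2(RPM + 1) over the 20 libraries of 0.60. Of all tested miRNAs, 4.72% varied less. miR-23b-3p varied most, with an SD of 1.76 against a median of 1.20 over all tested. Between them came miR-23a-3p (1.61), miR-24-2-5p (1.48), miR-27a-3p (1.14) and miR-24-3p (0.75). These SDs, and the ranges that follow, depend on the scaling of the libraries and were computed on RPM only. Median-of-ratios factors, used for a scaling below, ran from 0.485 in CIH 3 to 2.77 in MI+CIH 5. On chromosome 13 the highest level over the 20 hearts was 26.9 times the lowest for miR-23b-3p and 4.72 times for its neighbour miR-27b-3p, whereas on chromosome 8 the neighbours miR-23a-3p and miR-27a-3p spanned nearly the same range (26.6 and 27.5 times). The chromosome 8 neighbours did not move together for that. The SD of their log2 ratio over the 20 hearts was 2.28, against 1.58 for miR-27b-3p and miR-23b-3p.

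**Figure D1:**
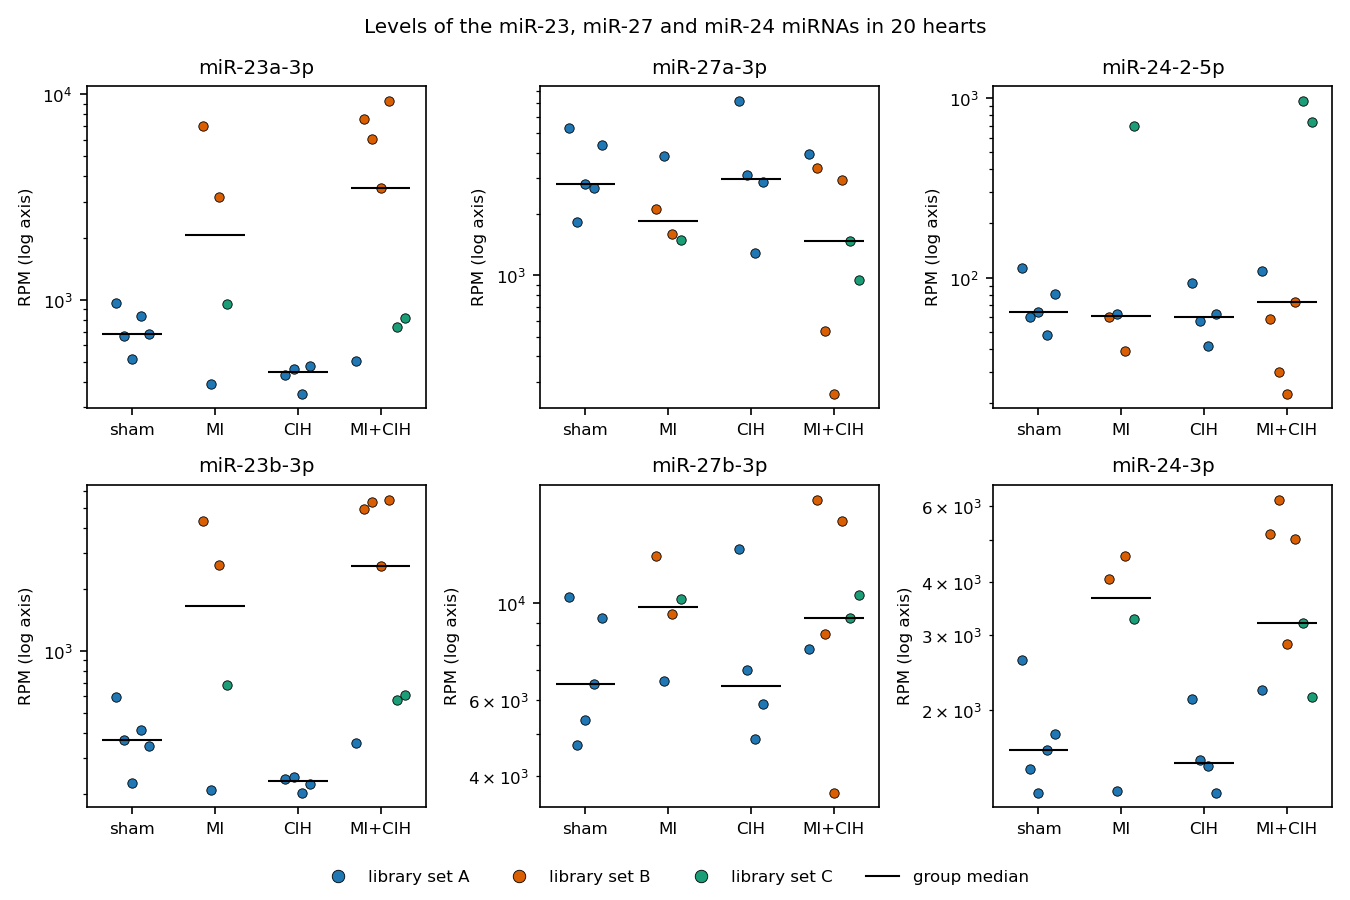
Level of each of the 6 miRNAs (RPM, log axis) in every heart by group, coloured by library set, with the group median as a line. The 2 miR-23 miRNAs are high in the 6 hearts of set B, where miR-23b-3p is at 2604 to 5471 RPM, and miR-24-2-5p is high in the 3 hearts of set C, at 693 to 964 RPM.

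miR-23a-3p and miR-23b-3p, the first miRNAs of the clusters, were highest in 6 of the 11 infarcted hearts. Their increase over sham passed the test in MI+CIH and not in MI, while the difference between MI+CIH and MI itself did not pass (0.50 and 0.62 on the log2 scale, limma adjusted p = 0.898 and 0.895). miR-23a-3p was at 967, 669, 516, 831 and 683 RPM in sham 1 to 5, at 431, 460.1, 349.5 and 478 in CIH 1 to 4 and at 7019, 391, 3168 and 959.6 in MI 1 to 4. In the 7 MI+CIH hearts it had a lowest of 505, a median of 3509 and a highest of 9297 RPM. The hearts of set B held 3168 to 9297 RPM, whereas MI 2 and MI+CIH 1 lay below every sham heart and the hearts of set C between 739 and 959.6 RPM. These 6 hearts also had the highest leukocyte sums given above, and their muscle sums were 88403 to 184642 RPM against 183298 to 317712 in set A and 241459 to 295409 in set C. The muscle sum need not describe each miRNA in it. Its member miR-133a-3p kept a fairly steady ratio to miR-23a-3p over the 20 hearts (SD of the log2 ratio 0.64), among the closest found below. Whether the low muscle sums reflect less muscle was not tested. The group means of miR-23a-3p were 733 ± 172 RPM (SD, n = 5) in sham, 2884 ± 3005 RPM (SD, n = 4) in MI, 429.7 ± 56.9 RPM (SD, n = 4) in CIH and 4064 ± 3603 RPM (SD, n = 7) in MI+CIH.

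miR-23b-3p was at 598, 367, 227, 411 and 343 RPM in the sham hearts and at 238, 244, 203 and 225 in the CIH hearts. The MI hearts held 4296, 209, 2618 and 684 RPM, and those of MI+CIH had a lowest of 356, a median of 2604 and a highest of 5471 RPM. The same 6 hearts were high, at 2604 to 5471 RPM, and the MI and sham ranges overlapped through MI 2. In MI+CIH against sham, 4 of the 8 entries rose and none fell, where 52.2% of the 360 tested rose and 4.44% fell. They were miR-23a-3p (log2 change 1.74, SE 0.73, limma adjusted p = 0.0485), miR-23b-3p (log2 change 2.22, SE 0.75, limma adjusted p = 0.0185), miR-24-3p and its antisense entry. No entry had every MI+CIH heart on one side of every sham heart, where 13.6% of the tested did as higher and 1.67% as lower. The share of the entries that rose is close to that of all tested miRNAs. The median log2 change of the 8 was 0.87 against 1.39 over all tested, so relative to that median miR-23a-3p changed by 0.35 and miR-23b-3p by 0.83. The same 4 entries rose in MI+CIH against CIH, where 54.7% of the tested rose and 2.22% fell, miR-23a-3p among them (log2 change 2.49, SE 0.79, limma adjusted p = 0.0131) and miR-23b-3p (log2 change 2.93, SE 0.80, limma adjusted p = 0.00541). Every MI+CIH heart was above every CIH heart for miR-23a-3p, miR-23b-3p and miR-24-3p, a separation in this direction that 27.8% of tested miRNAs showed.

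Both increases depended on the libraries and on the scaling. With the library set as a term in the fit, miR-23a-3p in MI+CIH against sham changed to -0.59 and miR-23b-3p to -0.29 (limma adjusted p = 0.687 and 0.810). In a fit with the set term, here and below, only MI 2 and MI+CIH 1 link infarcted hearts to sham and CIH hearts. Such a fit rests on these hearts to separate infarction from library set, and it called 0% of all tested in MI+CIH against sham. With median-of-ratios scaling miR-23a-3p and miR-23b-3p changed by 0.34 and 0.82 (limma adjusted p = 0.573 and 0.168). DESeq2 on the recovered reads kept the call of miR-23b-3p (log2 change 1.10, adjusted p = 0.0424). With sample quality weights, which let each library count by its estimated variability, both rose more on the RPM scale, by 3.21 and 3.63 against sham (limma adjusted p = 2.0e-08 and 3.5e-09) and by 3.75 and 4.12 against CIH (limma adjusted p = 1.4e-09 and 4.6e-10). In that fit 5 of the 8 entries were called higher in each of these comparisons, where 76.1% and 78.3% of all tested were, and the median log2 change of all tested was 1.91 and 1.95. The estimation of these weights stopped before it converged, and the 5 lowest weights (0.121 to 0.211) went to the infarcted hearts outside set B, namely MI 2, MI 4 and MI+CIH 1, 6 and 7, against 0.318 to 9.91 in the other 15. In fits that left out 1 library, the call for miR-23a-3p against sham was kept in 6 of 20. It was lost without any single sham or CIH heart, without MI 4 and without MI+CIH 2, 3, 4 or 5 (log2 change 1.41 to 1.85, limma adjusted p = 0.0502 to 0.107). miR-23b-3p kept its call in all 20. With no filter on low values (more miRNAs in the adjustment) the limma adjusted p was 0.140 for miR-23a-3p and 0.0670 for miR-23b-3p against sham. Against CIH both kept their calls in all 20 fits that left out 1 library. With the set term they were 0.16 and 0.42 (limma adjusted p = 0.835 and 0.559), and with median-of-ratios scaling 0.81 and 1.25 (limma adjusted p = 0.210 and 0.0665).

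In MI alone no entry passed the test (limma), where 0% of the 360 tested did. None of the 8 had an unadjusted limma p under 0.05, where 101 of the 360 tested did. Neither edgeR nor DESeq2 called any of the 8, where edgeR called 0% and DESeq2 10.8% of all tested. No entry had every MI heart on one side of every sham heart, where 3.61% of the tested did as higher and 1.67% as lower. miR-23a-3p differed from sham by 1.24 (log2, SE 0.84, limma adjusted p = 0.262) and miR-23b-3p by 1.60 (SE 0.85, limma adjusted p = 0.195). With the library set as a term both turned, to -0.79 and -0.59 (limma adjusted p = 0.996 for each), and with median-of-ratios scaling they were 0.32 and 0.67 (limma adjusted p = 0.719 and 0.434). Without MI 2, miR-23b-3p (log2 change 2.41, limma adjusted p = 0.0354), miR-24-3p (1.21, limma adjusted p = 0.0354) and the antisense entry of miR-24-3p passed as higher, where 29.7% of all tested did. With sample quality weights 4 of the 8 passed as higher, those 3 and miR-23a-3p, where 65.3% of all tested did. miR-24-3p in MI was 0.81 on the RPM scale (limma adjusted p = 0.203), -0.12 with median-of-ratios scaling, -0.13 with TMM, -0.31 in edgeR and -0.098 in DESeq2, none of them past the threshold. In CIH alone no entry passed the test either (limma, 0% of the tested). None of the 8 had an unadjusted limma p under 0.05, where 1 of the 360 did. Neither edgeR nor DESeq2 called any of the 8, where edgeR called 0 and DESeq2 1 of the 360. The CIH hearts nevertheless all lay below the sham hearts for miR-23a-3p, the only one of the 8 entries without overlap in that comparison. Of the tested miRNAs, 2.78% showed such a separation in this direction. The change of miR-23a-3p was -0.75 (log2, 95% interval -2.49 to 0.996). For miR-23b-3p the change was -0.71 (95% interval -2.48 to 1.06), with CIH 1 and CIH 2 above sham 3.

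**Figure D2:**
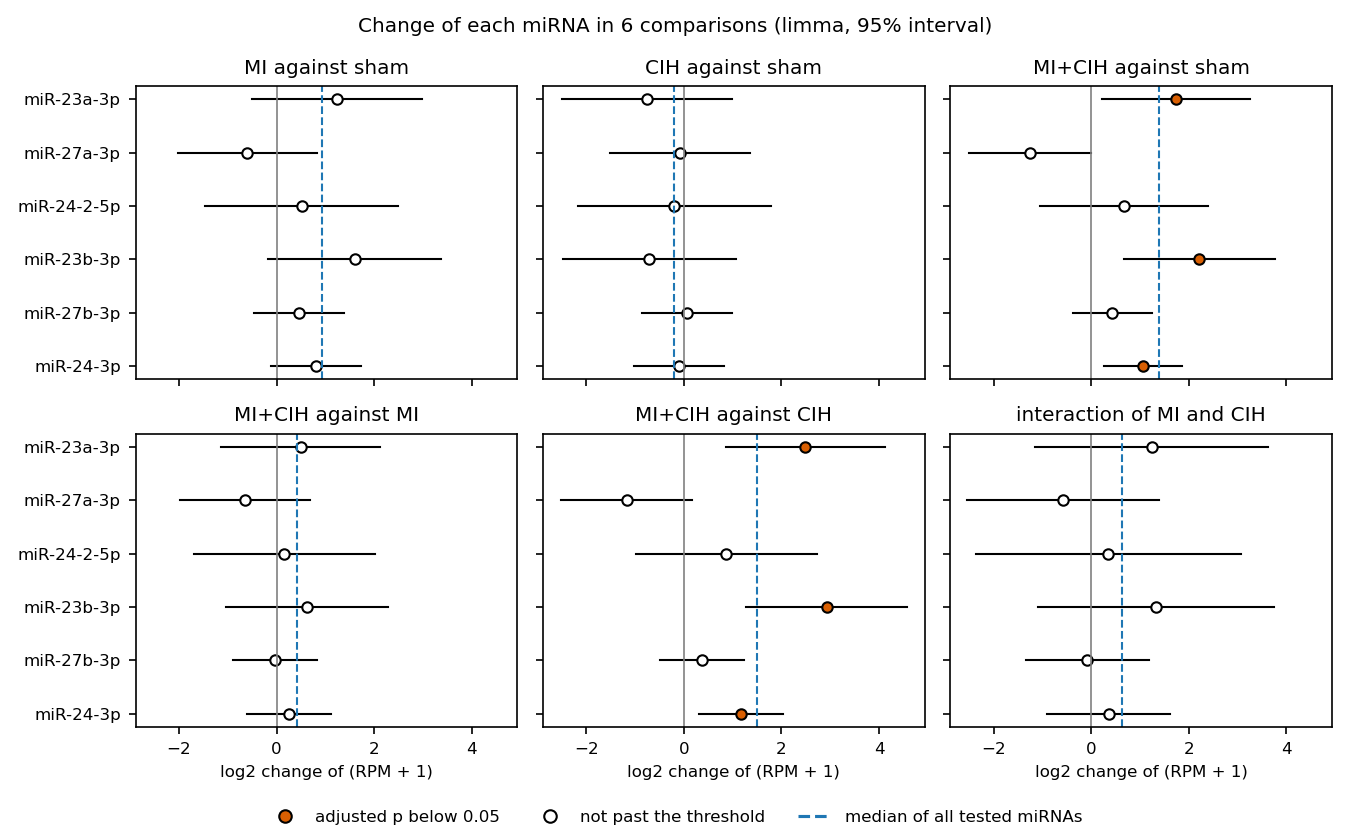
Log2 change of RPM + 1 with its 95% interval (limma) for the 6 miRNAs in 6 comparisons; filled points passed the adjusted threshold of 0.05 and the dashed line is the median of the 360 tested miRNAs. miR-23a-3p, miR-23b-3p and miR-24-3p pass in MI+CIH against sham and against CIH on the RPM scale, where the dashed lines stand at 1.39 and 1.51, and miR-24-3p lies below both lines and turns negative with median-of-ratios scaling.

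miR-24-3p, the last miRNA of both clusters, was at 2629, 1459, 1284, 1613 and 1758 RPM in the sham hearts, 2126, 1528, 1482 and 1282 in the CIH hearts and 4052, 1295, 4587 and 3265 in the MI hearts. In MI+CIH it had a lowest of 2148, a median of 3203 and a highest of 6218 RPM. MI 1, MI 3 and MI 4 were above every sham heart and MI 2 was among the lowest of all 20. The MI+CIH range began at 2148 RPM, above every CIH heart but below sham 1. It rose in MI+CIH against sham on the RPM scale (log2 change 1.07, SE 0.39, limma adjusted p = 0.0254) and lay -0.33 from the median of all tested. It rose by 1.61 with sample quality weights (limma adjusted p = 8.4e-07), but turned to -0.33 with median-of-ratios scaling. With TMM it was -0.41, in edgeR -0.53 and in DESeq2 -0.32, and none of these passed the test. Against CIH it rose by 1.17 on the RPM scale (SE 0.41, limma adjusted p = 0.0215), and the same scalings gave -0.51, -0.60, -0.68 and -0.49. With the library set as a term the changes were 0.07 and 0.17 (limma adjusted p = 0.954 and 0.813). The call against sham was lost without sham 2, sham 3, or MI+CIH 2, 3 or 5 (log2 change 0.93 to 1.01, limma adjusted p = 0.0501 to 0.0684), and that against CIH without CIH 2 or CIH 4 (1.07 to 1.16, limma adjusted p = 0.0508 to 0.0666).

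The scaling moved all miRNAs together. In MI+CIH against sham limma on RPM called 188 miRNAs higher and 16 lower, and with median-of-ratios scaling 61 were higher and 51 lower, while the median log2 change of all tested moved from 1.39 to 0.12. For MI+CIH against CIH the calls were 197 higher and 8 lower, and 49 higher and 48 lower with that scaling, with medians of 1.51 and 0.08.

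Neither miRNA of the miR-27 pair rose past the threshold in any comparison of limma on RPM with equal weights for the libraries. With sample quality weights miR-27b-3p did. miR-27a-3p, from the middle of the chromosome 8 cluster, was at 5309, 1832, 2817, 2676 and 4382 RPM in the sham hearts and at 7208, 3103, 1283 and 2868 in the CIH hearts. It was at 2114, 3839.7, 1599 and 1492 in the MI hearts, and the MI+CIH hearts had a lowest of 262, a median of 1467 and a highest of 3928 RPM. MI+CIH 3 and 4 (533 and 262 RPM) were the lowest of all 20 hearts, the libraries with the fewest reads (2051573 and 1991323), and all groups overlapped. In MI+CIH it was -1.25 (log2, SE 0.60) from sham and missed the threshold (limma adjusted p = 0.0805). The direction was opposite to that of most tested miRNAs, and the distance from their median was -2.64. Without MI+CIH 1 it passed as lower (-1.51, limma adjusted p = 0.0304). It also passed as lower with median-of-ratios scaling (-2.65, limma adjusted p = 0.0119), with TMM (-2.72, limma adjusted p = 0.0154), in edgeR (-2.09, adjusted p = 0.0447) and in DESeq2 (-1.95, adjusted p = 0.0154). With the library set as a term it was 0.05 (limma adjusted p = 0.984), and with sample quality weights -0.48 (limma adjusted p = 0.291). Against CIH the change was -1.17 (SE 0.65, limma adjusted p = 0.120), and -2.85 with median-of-ratios scaling (limma adjusted p = 0.0110). In MI alone it was -0.60 (SE 0.69, limma adjusted p = 0.513) and in CIH alone -0.07 (SE 0.69, limma adjusted p = 0.998).

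miR-27b-3p, its paralogue with the same seed, was at 10352, 4715, 5377, 6499 and 9244 RPM in the sham hearts and at 13306, 7004, 4871 and 5869 in the CIH hearts. It was at 12829, 6625, 9434 and 10210.3 in the MI hearts, and the MI+CIH hearts had a lowest of 3661, a median of 9265 and a highest of 17300.0 RPM. The lowest and the highest of the 20 hearts, MI+CIH 4 and MI+CIH 2, belonged to the same group and the same library set. With equal weights it did not pass the test in any of the 6 comparisons on the RPM scale, with log2 changes of 0.46 in MI (95% interval -0.46 to 1.38), 0.06 in CIH (-0.87 to 0.98) and 0.44 in MI+CIH (-0.37 to 1.24) against sham. With sample quality weights it rose in MI+CIH, by 1.02 against sham (limma adjusted p = 0.00345) and 0.95 against CIH (limma adjusted p = 0.00560), below the median of all tested in that fit. The change against sham turned to -0.96 with median-of-ratios scaling (limma adjusted p = 0.0620), -1.04 with TMM (limma adjusted p = 0.105), -1.01 in edgeR (adjusted p = 0.0790) and -0.84 in DESeq2 (adjusted p = 0.0662). In MI the same scalings gave -0.47, -0.49, -0.57 and -0.42, with adjusted p of 0.496 to 0.604. For MI+CIH against CIH the change was 0.38 on the RPM scale and turned to -1.30 with median-of-ratios scaling (limma adjusted p = 0.0279), -1.35 in edgeR (adjusted p = 0.0335) and -1.20 in DESeq2 (adjusted p = 0.0155), where it passed as lower.

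miR-24-2-5p, the 5p arm of the last hairpin on chromosome 8, split the infarcted hearts in another way. It was at 114, 60.2, 64.0, 47.9 and 81.0 RPM in the sham hearts, 92.9, 57.5, 41.8 and 63.0 in the CIH hearts and 60.2, 62.5, 39.0 and 693 in the MI hearts. In MI+CIH it had a lowest of 22.6, a median of 73.1 and a highest of 964 RPM. MI 4, MI+CIH 6 and MI+CIH 7, the hearts of set C, held 693 to 964 RPM, while the other 17 hearts held 22.6 to 114. It passed no test (limma log2 changes 0.52 in MI, -0.19 in CIH and 0.68 in MI+CIH against sham, adjusted p = 0.696, 0.998 and 0.495). With median-of-ratios scaling the changes in MI and MI+CIH turned to -0.39 and -0.69, and with sample quality weights to -0.037 and -0.046, and neither passed. These same 3 hearts carried the high endothelial sums given above, and smooth muscle miRNAs (2) were at 25883 to 41639 RPM in them against 134524 to 261394 in set A and 130564 to 272741 in set B. The endothelial sum need not describe each miRNA in it, as its member miR-126a-3p alone averaged 11594 RPM over the 20 hearts.

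Adding CIH to infarction moved none of the 8 entries past the test. Between MI+CIH and MI, edgeR and DESeq2 called none of the 8 and 0 of the 360. The limma test also called 0 of 8 (0% of the 360), with no unadjusted p under 0.05 among them, where 17 of the 360 had one. The log2 changes were 0.50 for miR-23a-3p (95% interval -1.13 to 2.13), 0.62 for miR-23b-3p (-1.04 to 2.27) and 0.25 for miR-24-3p (-0.61 to 1.12). They were -0.65 for miR-27a-3p (-1.99 to 0.69), -0.02 for miR-27b-3p (-0.88 to 0.84) and 0.16 for miR-24-2-5p (-1.69 to 2.01). Without sham 1 and MI 2 the changes of miR-23a-3p, miR-23b-3p and miR-24-3p turned to -0.21, -0.19 and -0.15 (limma adjusted p = 0.995 for each). All 6 intervals hold 0 and none is narrow enough to show that the groups were alike. No entry had every MI+CIH heart on one side of every MI heart, where 0.278% of the tested did as higher. Within library sets the MI+CIH hearts lay on both sides of the MI hearts. Of the 7, 3 were above every MI heart of their set and 2 below for miR-23a-3p. The counts were 4 and 3 for miR-23b-3p, miR-27b-3p and miR-24-3p, 3 and 4 for miR-27a-3p, and 4 and 2 for miR-24-2-5p. The interaction, which asks whether CIH acts differently in infarcted and in sham-operated hearts, was not past the threshold for any of the 8 (limma, 0% of the 360). No unadjusted limma p was under 0.05 among the 8, where 14 of the 360 had one, and edgeR and DESeq2 called none of the 360. The interaction was 1.24 (SE 1.15) for miR-23a-3p and 1.33 (SE 1.17) for miR-23b-3p.

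The 6 miRNAs together made up 1.36 ± 0.454% (SD, n = 5) of miRNA reads in sham, 1.37 ± 0.669% (n = 4) in CIH, 2.04 ± 0.761% (n = 4) in MI and 2.33 ± 1.11% (n = 7) in MI+CIH, ranges that overlapped. The totals behind this share include the entries that repeat another. The make-up of that share varied between library sets. The miR-23 pair gave 2.86% to 11.4% of the 6 (set A), 27.0% to 47.3% (set B) and 8.11% to 9.50% (set C). In the same order, miR-27b-3p gave 51.8% to 59.2%, 28.3% to 45.1% and 57.1% to 66.5%. MI 2 and MI+CIH 1, the infarcted hearts of set A, had 4.83% and 5.76% of the 6 in the miR-23 pair, inside the range of the sham and CIH hearts.

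**Figure D3:**
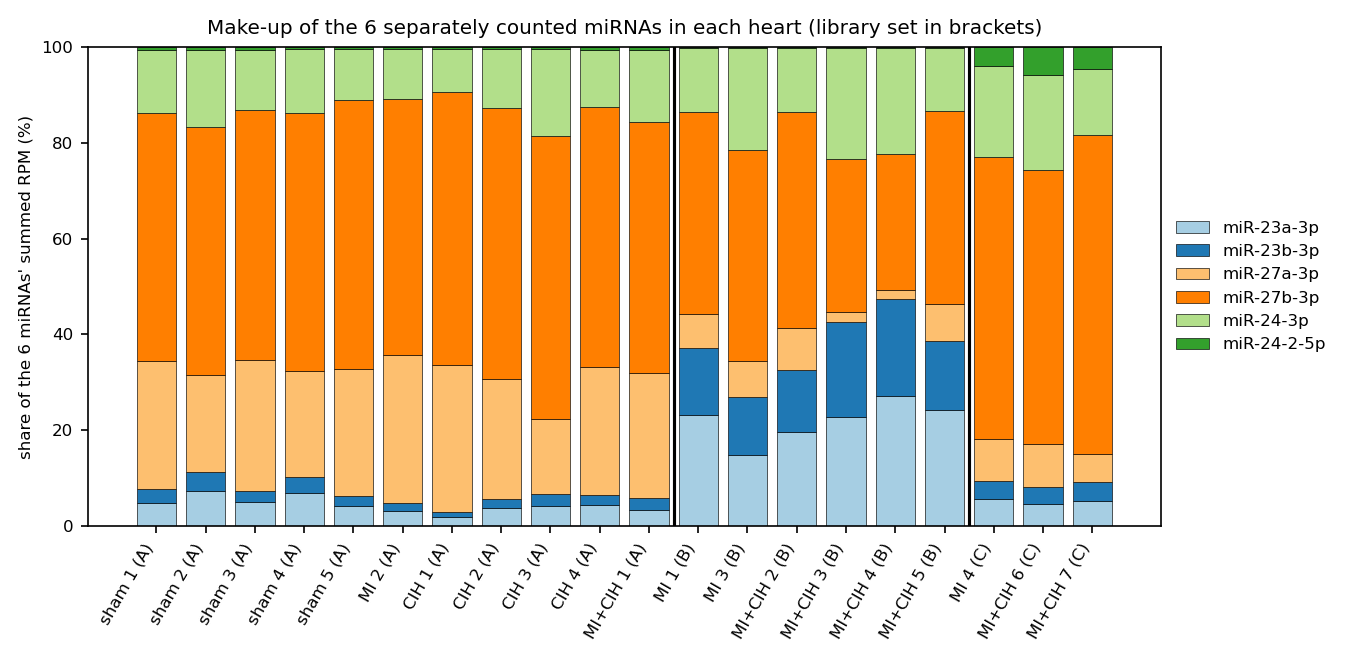
Share of each of the 6 miRNAs in their summed RPM (percent, stacked bars) for every heart, ordered by library set with black lines between the sets. The miR-23 pair takes 27.0% to 47.3% in the 6 hearts of set B and at most 11.4% in the other 14.

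Ratios within a heart do not move with the scaling of its library, and 6 of them were compared between groups in 30 exact permutation tests (two-sided, over libraries, on the mean log2 ratio). Before adjustment 8 had a p under 0.05, and after Benjamini-Hochberg adjustment over the 30 none did (smallest adjusted p = 0.0568). Without MI+CIH 1, each of these 8 differences had an adjusted p of 0.0357, and without sham 1 the 2 differences in the ratio of miR-23a-3p to miR-23b-3p had one of 0.0455 (exact permutation tests). The ratio of miR-23a-3p to miR-23b-3p, between the paralogous clusters, was 1.62 to 2.27 in sham, 1.72 to 2.13 in CIH, 1.21 to 1.87 in MI and 1.14 to 1.70 in MI+CIH. It was lower in MI+CIH than in sham by 0.48 on the log2 scale, exact permutation p = 0.00379, adjusted p = 0.0568 (lower in all but 1 of the 7, MI+CIH 5, than the lowest sham heart), and lower than in CIH by 0.44 on the log2 scale, exact permutation p = 0.00303, adjusted p = 0.0568, with no overlap. This is the smallest exact p that 7 against 4 libraries can give. It was also low in MI+CIH 1 (1.42), the MI+CIH heart of set A.

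The ratio of miR-27a-3p to miR-27b-3p followed the library sets. It was 0.389 to 0.524 in sham, 0.263 to 0.542 in CIH, 0.146 to 0.580 in MI and 0.0627 to 0.501 in MI+CIH, and 0.263 to 0.580 (set A), 0.0627 to 0.195 (set B) and 0.0904 to 0.158 (set C). MI 2 (0.580) and MI+CIH 1 (0.501) stood with the sham hearts, and every other infarcted heart lay below all sham and CIH hearts. MI+CIH differed from sham by -1.68 on the log2 scale, exact permutation p = 0.00884, adjusted p = 0.0663, and from CIH by -1.55 on the log2 scale, exact permutation p = 0.0242, adjusted p = 0.109. Without MI+CIH 1 these differences were -1.99 and -1.86.

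Neighbours within a cluster separated further. The ratio of miR-27a-3p to miR-23a-3p, both from chromosome 8, was 2.74 to 16.7 (set A), 0.0747 to 0.505 (set B) and 1.15 to 1.99 (set C). The ratio of miR-27b-3p to miR-23b-3p, both from chromosome 13, was 12.9 to 55.9, 1.41 to 3.60 and 14.9 to 17.1. For MI+CIH against CIH the first differed by -3.66 on the log2 scale, exact permutation p = 0.0273, adjusted p = 0.109, and the second by -2.55 on the log2 scale, exact permutation p = 0.0121, adjusted p = 0.0727, with no overlap between the groups. Hearts of set B thus held less miR-27 per miR-23 from each cluster than any heart of set A or C, as a description of hearts whose sets were made from other miRNAs of the same libraries.

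The ratio of miR-24-3p to the miR-23 pair separated the CIH from the sham hearts without passing the adjusted threshold. It was 1.30 to 1.73 in sham and 1.82 to 3.18 in CIH, with no overlap, a difference of 0.63 on the log2 scale, exact permutation p = 0.00794, adjusted p = 0.0663. An exact p of 0.00794 is the smallest p that 5 against 4 libraries can give. Both groups lie in library set A. The ratio in MI 2 (2.16) and in MI+CIH 1 (2.59) lay inside the CIH range, as did those in MI 4 (1.99) and MI+CIH 6 (2.44). The ratio of miR-24-3p to miR-24-2-5p, the 3p and 5p sides of the Mir24-2 hairpin except that the 3p side also counts Mir24-1, was 20.1 to 35.5 (set A), 67.3 to 209 (set B) and 2.92 to 4.71 (set C), and no group comparison of it had an exact permutation p under 0.05. Comparing MI+CIH with MI inside library sets (labels exchanged within sets, 90 arrangements) gave exact permutation p = 0.200 to 0.944 for the 6 ratios.

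**Figure D4:**
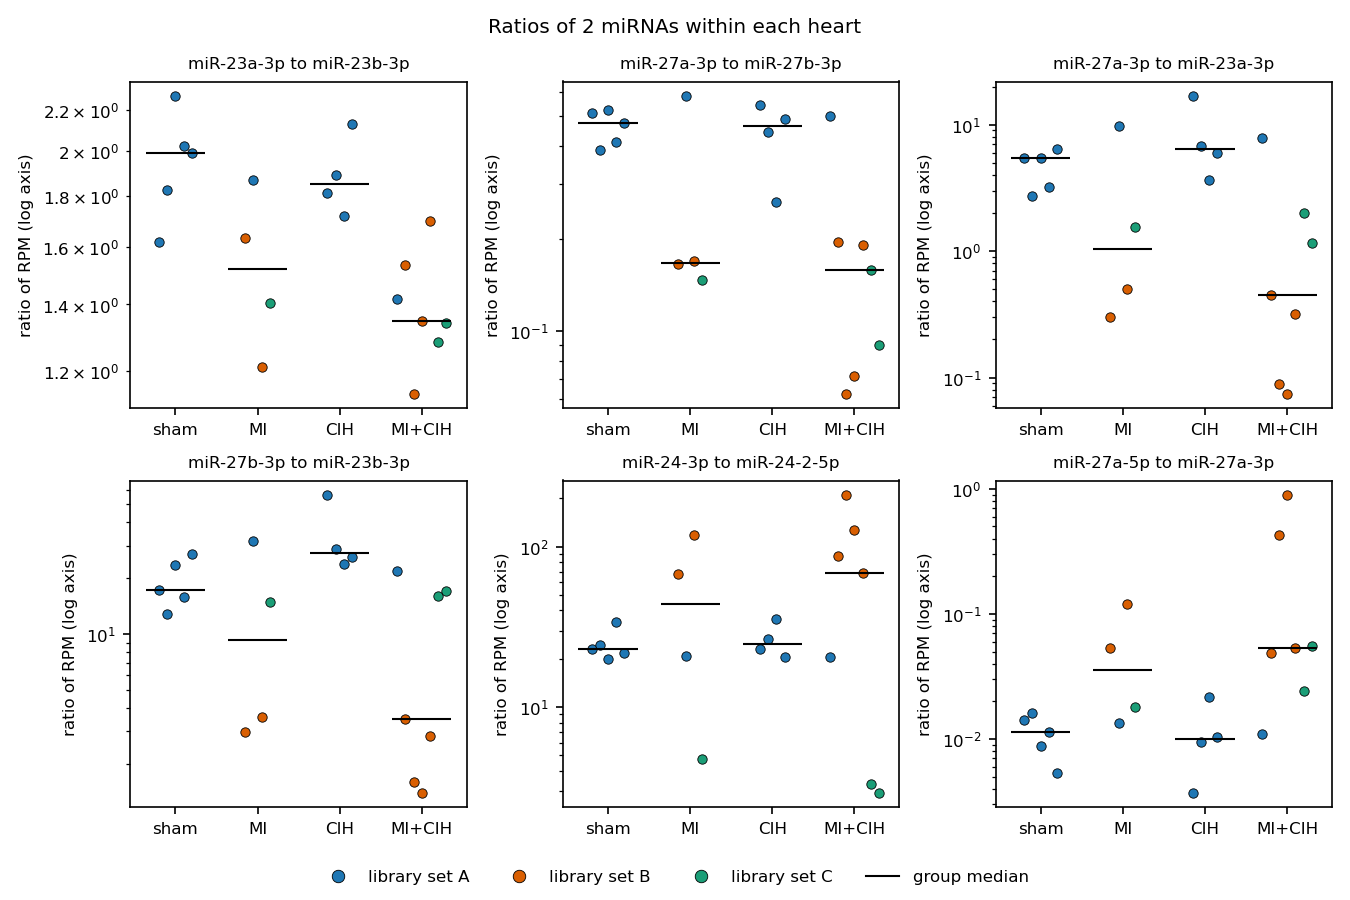
Ratios of RPM (log axes) between miRNAs of the clusters in every heart by group, coloured by library set, with the group median as a line. In the panel of miR-27a-3p to miR-27b-3p, MI 2 (0.580) and MI+CIH 1 (0.501) lie with the sham hearts and the other infarcted hearts at 0.0627 to 0.195.

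The remaining arms of the same hairpins were read as well. miR-23a-5p and miR-23b-5p had reads in 13 and 17 of 20 libraries and were too low to test. miR-27a-5p, the arm opposite miR-27a-3p, was at 75.9, 29.6, 24.5, 30.2 and 23.6 RPM in the sham hearts, 26.8, 29.2, 27.8 and 29.9 in the CIH hearts and 113, 51.9, 191 and 26.9 in the MI hearts, and the MI+CIH hearts had a lowest of 35.2, a median of 158 and a highest of 233 RPM. The hearts of set B were high (113 to 233 RPM) and the others at 23.6 to 75.9. It rose in MI+CIH against sham (log2 change 1.59, SE 0.56, limma adjusted p = 0.0224) and against CIH (1.804, SE 0.60, limma adjusted p = 0.0168), while miR-27a-3p from the same hairpin had changes of -1.25 and -1.17. Relative to the median of all tested, the rise of miR-27a-5p was 0.20 and 0.29. miR-27b-5p rose as well, by 2.02 against sham (SE 0.73, limma adjusted p = 0.0254) and 1.999 against CIH (SE 0.78, limma adjusted p = 0.0338), from 4.79 to 12.6 RPM in set A to 44.7 to 139 in set B. These 4 calls were made on the RPM scale and were lost under the other scalings. With median-of-ratios scaling the changes against sham and CIH were 0.22 and 0.16 for miR-27a-5p (limma adjusted p = 0.652 and 0.784) and 0.70 and 0.42 for miR-27b-5p (limma adjusted p = 0.286 and 0.572). In edgeR the change of miR-27a-5p against sham turned to -0.038 (adjusted p = 0.959). With the library set as a term the changes were 0.67 and 0.88 for miR-27a-5p and 0.31 and 0.29 for miR-27b-5p (limma adjusted p = 0.287 to 0.827), and without the filter on low values the adjusted p in limma was 0.0532 to 0.104. The call of miR-27a-5p against sham was lost without sham 3, sham 5 or MI+CIH 3 (log2 change 1.40 to 1.49, limma adjusted p = 0.0526 to 0.0553). That of miR-27b-5p was lost without sham 2, sham 3, or MI+CIH 2, 3 or 5 (1.69 to 1.94, limma adjusted p = 0.0501 to 0.0620), and against CIH without CIH 1, 2 or 4, or MI+CIH 2, 3, 4 or 5 (1.67 to 2.04, limma adjusted p = 0.0601 to 0.0879). miR-24-1-5p, which marks the chromosome 13 copy of miR-24, was at 2.14 to 5.94, 2.01 to 8.29 and 32.1 to 47.3 RPM in sets A, B and C and passed no test, as did miR-3074-1-3p.

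The level of miR-27a-5p as a percentage of miR-27a-3p, a ratio added after the data were seen, is given as a description. It was 0.372% to 2.17% (set A), 4.87% to 88.7% (set B) and 1.803% to 5.53% (set C). The highest values were in MI+CIH 4 (88.7%) and MI+CIH 3 (43.1%), the libraries with the fewest reads. For miR-27b the same percentage was 0.0651% to 0.258%, 0.348% to 2.29% and 0.0726% to 0.0856%. The ratio of miR-24-2-5p to miR-24-1-5p, the 5p arms of the 2 miR-24 hairpins, was 10.1 to 29.2, 3.59 to 11.7 and 17.0 to 22.9. Both entries were high in set C, where miR-24-1-5p was at 0.0437 to 0.0587 of miR-24-2-5p. Whether some reads of miR-24-2-5p were counted as miR-24-1-5p was not tested.

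The miRNAs most like each member were found as those whose log2 ratio to it varied least over the 20 libraries (SD, among 158 tested miRNAs outside the members with a mean of at least 50 RPM); all such values share the libraries, their depth and their scaling. miR-23a-3p and miR-23b-3p were each other's closest, with an SD of 0.28, and beyond them miR-652-3p was closest to both (SD 0.44 and 0.39). miR-99b-3p (0.58) and miR-133a-3p (0.64) came next for miR-23a-3p, and miR-127-3p (0.50) and miR-574-3p (0.52) for miR-23b-3p. For miR-27b-3p they were miR-1843a-5p (0.31), miR-1843b-5p (0.35) and miR-322-3p (0.38), and for miR-24-3p miR-1843b-5p (0.41), miR-1839-5p (0.41) and miR-26a-5p (0.45). For miR-27a-3p they were miR-192-5p (0.53), miR-450a-5p (0.57) and miR-378c (0.64). The cluster neighbours miR-27a-3p and miR-23a-3p were far apart on this measure, with an SD of 2.28 against a median of 1.87 for miR-27a-3p and all tested. miR-24-2-5p, added to this measure after the data were seen, was closest to the endothelial miRNA miR-126a-3p (0.60), then to miR-29a-3p (0.63) and miR-148a-3p (0.77). As miR-126a-3p is part of the endothelial sums given above, this likeness is not separate from them.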

How the data were processed

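One table covered the 20 heart libraries. Per the labels' protocols, frozen hearts were extracted with Trizol, and a NEBNext small RNA kit was used on 3 µg of total RNA. The submitters' processing notes name mm10, Bowtie and DESeq 1.8.3 without their roles; the annotation release and the handling of reads that fit several miRNAs are not given in the sources used here. The authors deposited values labelled TPM that are RPM, reads per 1000000 miRNA reads. Each miRNA's reads were divided by the library's total, repeated entries included. This was read from the values, as each library sums to 1000000 and 100% of values equal a whole number of reads (within 0.05 reads). Whole reads were recovered from them for the count tests.

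The tests used limma 3.58.1 (R 4.3.3) on log2 of RPM plus 1, one mean for each of the 4 groups, all 20 hearts together, moderated with a trend and two-sided (residual degrees of freedom 16, prior 5.90). The filter left 360 miRNAs (5 RPM or more in 4 libraries or more), and Benjamini-Hochberg adjustment over these set the threshold at 0.05. Log2 changes on this scale understate those of low miRNAs. Code was tested on simulated data. Ratios were compared by exact permutation over libraries. Alternatives were pseudocounts of 0.5 and 5, no filter or a mean of 50 RPM, median-of-ratios and TMM scaling, quality weights, the compared groups alone, a replicate block, a library set term, removal of the 12 tested entries that repeat another, edgeR 4.0.16 and DESeq2 1.42.0 on whole reads, and leaving out libraries. The set term combined with median-of-ratios scaling was added after the data were seen. All 8 members, the 6 remaining hairpin arms and the 3 most alike miRNAs of each member are named. Members, lists and tests were chosen with earlier results of these data known. Limits from 0 counts cover counting error only.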

Additional observations from a re-analysis of the deposited data

Results flagged for a closer look

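Checked were 56 sets of values (8 miRNA entries and 6 ratios in 4 groups). In 7 of them a heart stood far from the rest, by the gap to its nearest neighbour against the range of the group. Chance gives about 1 in 20 for separate sets of normally distributed values. These sets share reads, hearts and miRNAs and were checked on linear values, so the 7 cannot be compared with that rate. Within MI, miR-24-2-5p was at 693 RPM in MI 4, against 39.0 to 62.5 in the other 3 hearts, and its antisense entry miR-3074-2-3p, which counts the same reads, was at 686 RPM. The ratio of miR-27a-3p to miR-27b-3p was 0.580 in MI 2, where the next MI heart had 0.170, and 0.501 in MI+CIH 1, where the next had 0.195. The ratio of miR-27a-3p to miR-23a-3p was 9.83 in MI 2, with the next MI heart at 1.56, and 7.78 in MI+CIH 1, with the next at 1.99. MI 2 and MI+CIH 1 are the infarcted hearts whose other miRNAs placed them in the library set of the sham and CIH hearts. In CIH, the ratio of miR-27b-3p to miR-23b-3p was 55.9 in CIH 1, with the others at 23.96 to 28.8.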

How the results depend on the processing

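Counts of members called in CIH against sham, in MI+CIH against MI and in the interaction were 0 under every alternative run. In MI against sham the count of 0 became 4 with sample quality weights and 3 without sham 1 and MI 2, where 72.5% and 31.7% of all tested were called, and was 0 to 3 over the fits that left out 1 library (3 without MI 2, with 31.4% of all tested). In MI+CIH against sham the count of 4 became 0 with no filter, with the library set as a term and with that term plus median-of-ratios scaling, 2 with copies removed and in DESeq2 (1 higher and 1 lower), and 1, as lower, with median-of-ratios scaling, with TMM and in edgeR, and was 1 to 5 over the fits that left out 1 library. Against CIH the count of 4 for MI+CIH became 0 with the library set and with that term plus median-of-ratios scaling, 2 with no filter, 1, as lower, with TMM, and 2, as lower, with median-of-ratios scaling and in edgeR, and was 2 to 4 over the fits that left out 1 library. DESeq2 did not keep the 4 higher calls either. In it miR-24-3p and miR-3074-5p turned to -0.49 and -0.50, and miR-27b-3p passed as lower. The count of ratios was 0 under the planned settings and 0 to 8 over the fits that left out 1 library (8 without MI+CIH 1, 2 without sham 1). In MI+CIH against sham and against CIH 5 members were called with sample quality weights, with 85.0% and 85.6% of all tested. Under the scalings and count tools 20.8% to 40.6% of all tested were called in these 2 comparisons, with no filter 9.53% and 11.7% of 1416, and with the library set 0%. With copies removed 51.9% of all tested were called against sham. That fit holds no antisense entries of the 8, so its 2 calls compare with 3 among the 6 miRNAs when copies are kept. Its median log2 change of all tested was 1.26, against 1.39 with copies kept. Fits that left out 1 library called 148 to 239 of the 360 against sham and 162 to 234 against CIH. Directions turned for some members. For miR-23a-3p and miR-23b-3p in MI+CIH against sham the log2 changes were -0.59 and -0.29 with the library set and -0.82 and -0.52 with median-of-ratios scaling added, which also gave -0.35 and -0.088 against CIH. miR-24-3p in MI+CIH against sham was -0.33 with median-of-ratios scaling, -0.41 with TMM, -0.53 in edgeR, -0.32 in DESeq2 and -0.16 with the library set and median-of-ratios scaling together, and miR-3074-5p, in the same order, -0.34, -0.41, -0.54, -0.33 and -0.16. Again in that order, in MI+CIH against CIH miR-24-3p was -0.51, -0.60, -0.68, -0.49 and -0.33, and miR-3074-5p -0.51, -0.61, -0.68, -0.50 and -0.34, while miR-27b-3p was -1.30, -1.35 and -1.20 with median-of-ratios scaling, in edgeR and in DESeq2. Scaling and the no-filter setting change what every miRNA is compared with; beyond that the cause was not tested. Replicate numbers did not pair the samples: over 25 pairs of the same number in different groups the correlation of their deviations ran from -0.71 to 0.87 (median -0.01, 10 over 0.1), and 4 of 20 libraries correlated best with their own number. With the replicate number as a block 4 members were called in MI+CIH against sham and 4 against CIH, where 218 and 211 of the 360 tested were. Depth limits low arms most: the 3-read limit was 1.51 RPM in the smallest library, where miR-24-1-5p rested on 4 reads.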

Other observations

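The antisense entries did not repeat their partners to the same degree at both loci. On chromosome 8, miR-3074-2-3p was at most 4.92% below miR-24-2-5p in any heart. On chromosome 13, miR-3074-1-3p was a median of 4.63% below miR-24-1-5p but 74.9% below it in MI+CIH 7, where miR-24-1-5p was at 32.1 RPM and miR-3074-1-3p at 8.05 RPM. MI+CIH 7 is one of the hearts of set C, in which miR-24-1-5p was at 32.1 to 47.3 RPM against 2.01 to 8.29 RPM in the other 17.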
